A study of Mus musculus with 39 samples.

Results

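The comparison described here is between livers of PPARα-null mice given perfluorooctanoic acid (PFOA) at 3 mg/kg and livers of PPARα-null mice given water. It takes in the 4 arrays titled for the null genotype with 3 mg/kg PFOA and the 4 titled for the null genotype with 0 mg/kg, 8 of the 39 arrays of the series, and all 25295 probes that had a value on every one of the 39 arrays. PFOA, as its ammonium salt in deionized water, was given by gavage to adult male mice on a 129SV background on 7 consecutive days, and the controls were gavaged in the same way at 0 mg/kg. The design text gives 4 animals per group, so each array stands for 1 animal, and every mouse of both groups lacked PPARα. The question is what PFOA still changes in a liver without this receptor. Further groups used below were PPARα-null mice on 1 mg/kg PFOA, PPARα-null mice on 50 mg/kg Wy14,643 (Wy) with their 0.5% methylcellulose controls, and wild-type mice on 3 mg/kg PFOA with their water controls, 4 arrays each.

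PFOA is a fluorinated fatty acid analogue used in making fluoropolymers. PPARα is a ligand-activated nuclear receptor that pairs with RXR and switches on genes of fatty acid uptake, peroxisomal and mitochondrial β-oxidation and microsomal ω-hydroxylation, and Wy is a classical agonist of it. Liver holds other xenobiotic sensors, among them CAR and PXR, known for inducing cytochromes P450 of the Cyp2b, Cyp2c and Cyp3a subfamilies together with carboxylesterases and conjugating enzymes, and NRF2, known for inducing glutathione enzymes.

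Values are log2 signals of 1 probe each on Applied Biosystems mouse arrays, so a difference of 1 is 2-fold. The level of 1 gene is not set against that of another gene, apart from reference levels over many probes that are named where used. A probe was called when its Benjamini-Hochberg adjusted p over all 25295 probes was below 0.05 in a limma fit with 1 mean for each of the 10 groups. The spread of each probe was therefore estimated over all 39 arrays. Differences are given ± standard error and group means ± SD with n = 4 each.

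The labels were set beside a probe that divides the genotypes in this series and beside markers of the tissue. Cox6b2, a cytochrome oxidase subunit gene whose probe was bright in wild-type livers of this series, read 8.01 ± 0.38 in PFOA livers, against 8.44 ± 0.35 in water livers. Means of all wild-type groups of the series ran from 13.95 on water to 17.14 on 3 mg/kg PFOA. The link of Cox6b2 to genotype was seen in this series. It can therefore show arrays that depart from their group, but is no independent test of genotype. A single wild-type array on 1 mg/kg PFOA read 9.06 and so went against its label, and it enters the fits here only through the common spread. The Ppara probe was no such check, since it read 15.42 ± 0.48 in PFOA livers, against 15.21 ± 0.14 in water livers, and 16.61 ± 0.09 in wild-type PFOA livers, against 16.20 ± 0.48 in wild-type water livers. The 6 hepatocyte markers tested had a mean log2 signal of 19.83 to 20.03 on the PFOA arrays and 20.13 to 20.19 on the water arrays. Correlations between arrays over all probes were 0.928 to 0.964 within the PFOA group, 0.957 to 0.972 within the water group and 0.942 to 0.970 between them. A set of 91 probes split all 39 arrays into a group of 16 and a group of 23 that no label names. PFOA replicates 1 and 4 and water replicates 1, 3 and 4 were in the smaller of these array sets, and PFOA replicates 2 and 3 and water replicate 2 in the larger. None of the probes called below belonged to those 91, and all 76 had the same sign in both sets. Neither count tests the effect of the sets. The 91 were picked for large spread within groups, and most of the 76 had no overlap between PFOA and water arrays. The mean signal of 581 probes for genes silent in liver was 8.74 to 9.02 on the PFOA arrays and 8.73 to 8.80 on the water arrays (difference 0.107, exact permutation test, two-sided, p = 0.2).

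PFOA at 3 mg/kg changed 76 of 25295 probes in PPARα-null liver, or 0.3%. Of these, 66 rose (0.261% of the probes) and 10 fell (0.0395%). The rises had a median of 1.60 and ran from 0.69 to 7.44, and the falls had a median of -1.12 and ran from -0.62 to -1.98. The median over all probes was -0.03. At an unadjusted p under 0.05 the count was 2111. All 4 PFOA arrays lay above all 4 water arrays in 64 of the 66 risen probes, against 2.47% of all probes, and all lay below in 9 of the 10 fallen probes, against 3.46% of all probes. The exceptions were Prss8 and 1 probe without a gene name among the rises, and Svil among the falls. The probes were called on these same arrays, so the lack of overlap is not separate support for the calls. The called probes represented 44 named genes, while 30 carried no gene symbol and 2 carried several. When only these 8 arrays were fitted, 10 probes passed, among them S100a8, Cyp2c55, Cyp2b10, Cyp4a31, Ifi27l2b, Cnmd, Ces1g and Ces2a, with 30841 probes complete on these arrays. On the same 25295 probes, an alternative chosen after seeing the data, 15 passed, and the named ones were the same 8. The count fell to 43 without water replicate 1, to 45 without water replicate 3 and to 51 without PFOA replicate 4.

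**Figure D1:**
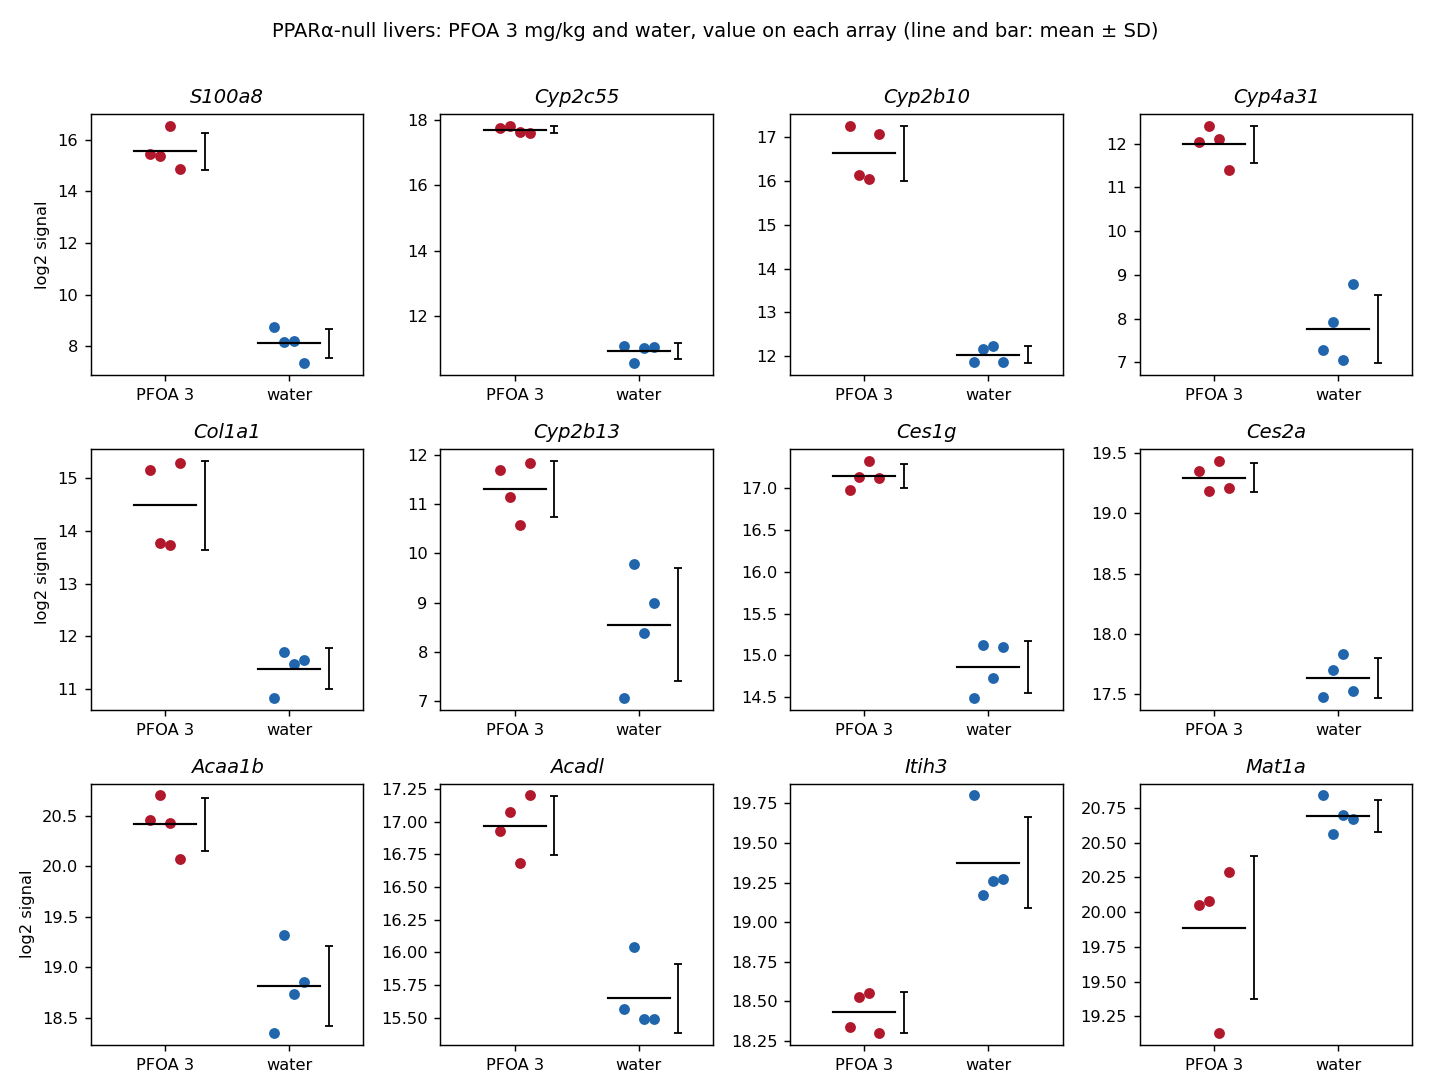
Log2 signal of 12 genes on each PPARα-null array, with the 4 PFOA arrays (red) left of the 4 water arrays (blue). Horizontal lines are group means and bars are SD. Each panel has its own axis, which does not start at 0. Acaa1b read 20.41 ± 0.26 on PFOA and 18.82 ± 0.40 on water, and in all 12 genes the groups do not overlap.

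The list of cytochromes P450 and partner genes known to respond to CAR and PXR (the P450 list) had the highest median log2 difference of the 25 gene lists. Cyp2c55, Cyp2b10 and Cyp2b13 rose, 3 of 18 tested members of the list, against 0.319% of all named genes, and none fell. The list median was 0.76, against -0.05 over all 11591 named genes, and 15 of the 18 differences were above 0. In 10 of the 18 all PFOA arrays lay above all water arrays, against 2.47% of all probes.

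Cyp2c55, a P450 that oxidizes arachidonic acid, read 17.75, 17.83, 17.63 and 17.61 on the PFOA arrays, against 11.08, 10.54, 11 and 11.04 on the water arrays. The groups were 6.53 apart at their nearest arrays, and the spread inside each was small beside that distance. The difference was 6.79 ± 0.45, adjusted p = 1.25e-11, which is 110-fold. Cyp2b10, the usual marker of CAR activity in mouse liver, read 17.26, 16.13, 16.05 and 17.08 on the PFOA arrays, against 11.87, 12.16, 12.24 and 11.87 on the water arrays. PFOA replicates 1 and 4, which are in the smaller array set, were higher than replicates 2 and 3. Its difference was 4.60 ± 0.58, adjusted p = 1.96e-05, which is 24.2-fold. It was 5.18 within the smaller array set and 3.93 within the larger. With the mean signal of the silent-gene probes (the silent-gene index) as a covariate it was 4.05. PFOA replicates 1 and 4 also had the higher silent-gene index, 8.95 and 9.02, against 8.74 and 8.81 in replicates 2 and 3.

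Cyp2b13, a member of the same subfamily that is known as female-biased in mouse liver, read 11.69, 11.15, 10.58 and 11.84 on the PFOA arrays, against 7.06, 9.79, 8.38 and 8.99 on the water arrays. The nearest PFOA and water arrays were 0.79 apart, and water replicate 1 was the lowest array. Its difference was 2.76 ± 0.55, adjusted p = 0.0112. The arrays of the smaller set alone gave 3.62 and those of the larger 1.08, and the call ended without water replicate 1 and without PFOA replicate 4. Cyp2b genes are close in sequence, and how far each probe also binds transcripts of its neighbours cannot be read from these files. A probe annotated to several genes rose by 5.55 and is left unnamed.

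Members of the P450 list that did not pass were Cyp2c37 (2.01 ± 0.48, adjusted p = 0.0618), Cyp3a13 (0.62 ± 0.15, adjusted p = 0.0722), Aldh1a7 (0.62 ± 0.16, adjusted p = 0.106) and Cyp2c54 (0.89 ± 0.32, adjusted p = 0.397). In each of these the 4 PFOA arrays were above the 4 water arrays, and Aldh1a7 and Cyp2c54 were picked after their values were seen. The receptors themselves did not pass the test: CAR (Nr1i3) read 16.41 ± 0.14 in PFOA livers, against 16.64 ± 0.08 in water livers, and PXR (Nr1i2) read 10.90 ± 0.17 in PFOA livers, against 10.46 ± 0.32 in water livers. Their differences were -0.23 ± 0.18, adjusted p = 0.79 for Nr1i3 and 0.45 ± 0.29, adjusted p = 0.732 for Nr1i2. None of 19 tested nuclear receptors and partners was called, against 0.319% of all named genes rising and 0.0518% falling, with a list median of -0.06.

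Promoters of genes that rose together are shown to set their proximal sequence beside the values. RefSeq promoters of build GRCm38.p6 were held for 37 of the 44 named genes. The 250 bases before the annotated start are given for S100a8 (chr3:90668821-90669070), Cyp2c55 (chr19:39006769-39007018), Cyp2b10 (chr7:25897408-25897657), Cyp2b13 (chr7:26061245-26061494) and Ces2a (chr8:104733753-104734002), all on the plus strand and 5′ to 3′. Capitals mark the string TATAAA, known from the core promoter of many genes, and the string AGGTCA and its variant AGTTCA, known as a half-site of nuclear receptors, each searched for on both strands.
S100a8: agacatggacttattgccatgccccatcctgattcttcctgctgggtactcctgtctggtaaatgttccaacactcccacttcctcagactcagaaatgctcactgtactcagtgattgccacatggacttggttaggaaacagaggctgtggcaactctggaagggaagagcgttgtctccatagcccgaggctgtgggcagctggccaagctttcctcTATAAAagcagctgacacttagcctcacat
Cyp2c55: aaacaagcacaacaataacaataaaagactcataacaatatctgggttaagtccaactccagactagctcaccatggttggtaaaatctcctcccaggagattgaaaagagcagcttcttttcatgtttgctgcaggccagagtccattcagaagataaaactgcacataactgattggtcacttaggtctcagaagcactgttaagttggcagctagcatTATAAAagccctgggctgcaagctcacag
Cyp2b10: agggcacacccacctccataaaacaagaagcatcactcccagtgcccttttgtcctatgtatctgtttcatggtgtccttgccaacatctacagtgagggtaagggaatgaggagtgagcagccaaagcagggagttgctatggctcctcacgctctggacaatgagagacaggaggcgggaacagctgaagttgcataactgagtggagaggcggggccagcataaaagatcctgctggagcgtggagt
Cyp2b13: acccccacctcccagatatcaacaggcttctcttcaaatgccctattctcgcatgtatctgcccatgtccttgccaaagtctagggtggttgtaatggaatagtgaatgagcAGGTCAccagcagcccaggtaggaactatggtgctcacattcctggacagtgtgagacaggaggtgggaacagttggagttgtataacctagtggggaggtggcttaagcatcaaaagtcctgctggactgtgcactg
Ces2a: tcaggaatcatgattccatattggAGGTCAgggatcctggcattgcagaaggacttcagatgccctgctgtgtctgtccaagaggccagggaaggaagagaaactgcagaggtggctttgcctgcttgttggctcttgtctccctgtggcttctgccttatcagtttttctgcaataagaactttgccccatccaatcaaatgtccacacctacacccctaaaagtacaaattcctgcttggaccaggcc

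TATAAA lay 30 to 25 bases before the start in S100a8 and 29 to 24 bases before it in Cyp2c55. AGGTCA lay 138 to 133 bases before the start in Cyp2b13 and 226 to 221 bases before it in Ces2a. The Cyp2b10 window held none of these 3 strings. Over the 37 named genes, 24.3% held TATAAA, 13.5% AGGTCA and 8.1% AGTTCA in at least 1 annotated promoter, against 14.3%, 15.8% and 13.4% of all 27025 genes in the table. These are matches of letters, and none of them was tested for binding. The strings do not overlap one another in the windows printed.

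Among 16 tested conjugating enzymes, esterases and transporters of the CAR and PXR list, 5 changed. Ces1g, Ces2a, Ces1e and Ugt2b34 rose and Sult2a8 fell, against 0.319% of named genes rising and 0.0518% falling, and the list median was 0.33. Carboxylesterases hydrolyse ester drugs and lipids in the endoplasmic reticulum.

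Ces1g read 16.98, 17.13, 17.33 and 17.12 on the PFOA arrays, against 14.49, 15.13, 14.73 and 15.10 on the water arrays. All PFOA arrays stood at least 1.85 above every water array. The difference was 2.28 ± 0.22, adjusted p = 1.55e-07, which is 4.85-fold. Ces2a read 19.35, 19.19, 19.44 and 19.21 on the PFOA arrays, against 17.47, 17.70, 17.83 and 17.52 on the water arrays, with no overlap and an SD of at most 0.16 in either group. The difference was 1.67 ± 0.19, adjusted p = 3.24e-06, which is 3.17-fold, and it was 1.67 and 1.61 within the smaller and the larger array set. Ces1e rose less (1.13 ± 0.24, adjusted p = 0.0263) and kept its call in 2 of the 8 fits that left out 1 of these arrays. Ces1d (0.97 ± 0.27, adjusted p = 0.158) and Ces2e (0.55 ± 0.19, adjusted p = 0.337) did not pass, although their PFOA arrays were all above their water arrays, and both were picked after their values were seen.

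Ugt2b34, a glucuronosyltransferase, read 18.72, 18.77, 18.61 and 18.55 on the PFOA arrays, against 17.73, 17.77, 17.84 and 17.62 on the water arrays. The groups were well apart and narrow, with SDs of 0.10 in PFOA livers and 0.09 in water livers. The rise was 0.93 ± 0.14, adjusted p = 0.000513. Sult2a8, a liver sulfotransferase, read 17.23, 17.32, 17.80 and 17.33 on the PFOA arrays, against 18.19, 18.07, 18.53 and 18.41 on the water arrays. Its groups did not overlap, with PFOA replicate 3 the nearest to the water arrays. It fell by 0.88 ± 0.19 (adjusted p = 0.0228), a call kept in 2 of the 8 leave-one-out fits.

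Among 25 tested glutathione enzymes and NRF2 targets, 3 rose and none fell, against 0.319% of named genes rising. The list median was 0.16. The 3 were Gstm2 and Gstm4, glutathione transferases of the mu class, and Ephx1, the microsomal epoxide hydrolase. Gstm2 read 19.22, 19.07, 18.52 and 19.09 on the PFOA arrays, against 17.52, 17.75, 17.69 and 17.55 on the water arrays. PFOA replicate 3 was the lowest of the PFOA arrays and still above every water array. Its difference was 1.35 ± 0.26, adjusted p = 0.00944. Gstm4 rose by 1.31 ± 0.25, adjusted p = 0.00866 and Ephx1 by 0.87 ± 0.13, adjusted p = 0.000244. Gstm4 lost its call without PFOA replicate 1. Fth1, a ferritin chain, and Srxn1, sulfiredoxin, did not pass (0.34 ± 0.10, adjusted p = 0.239 for Fth1 and 0.89 ± 0.30, adjusted p = 0.315 for Srxn1). Mu-class transferases are also close in sequence, so their probes may share signal.

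The probe with the largest difference was that of S100a8, a calcium-binding protein abundant in neutrophils and monocytes that pairs with S100a9. S100a8 read 15.44, 15.37, 16.54 and 14.85 on the PFOA arrays, against 8.73, 8.16, 8.22 and 7.34 on the water arrays. The lowest PFOA array was 6.12 above the highest water array, and PFOA replicate 3 was the highest. The difference was 7.44 ± 0.70, adjusted p = 8.07e-08. The water mean of 8.11 was below that of the silent-gene probes on the same arrays (8.77), so the fold is given as a bound, at least 109.8-fold, with each water array set to the higher of its own value and its silent-gene mean. The difference was 7.05 within the smaller array set and 7.80 within the larger.

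No other neutrophil marker passed the test. S100a9 read 10.49, 10.38, 10.47 and 10.38 on the PFOA arrays, against 10.74, 10.99, 10.92 and 10.21 on the water arrays, a difference of -0.28 ± 0.34, adjusted p = 0.884. Elane, the neutrophil elastase, differed by -0.62 ± 0.51, adjusted p = 0.812, Camp by 0.63 ± 0.53, adjusted p = 0.817 and Ltf by -0.36 ± 0.52, adjusted p = 0.903. Of 5 neutrophil markers tested, S100a8 alone was called, against 0.319% of all named genes rising, and the list median was -0.28. The mean log2 signal of the 5, S100a8 included, was 9.61 to 10.8 on the PFOA arrays and 8.42 to 9.18 on the water arrays. Among the others only Camp had a positive difference, and the higher mean of the 5 came from S100a8. On PFOA replicate 3 Camp read 10.07 and Ltf 9.62, the highest of the 8 arrays for both, and Elane read 7.11, the lowest. Camp and Ltf had means below the median of all probes' mean log2 signals (8.89) in both groups, Elane in PFOA livers alone (8.80) and S100a8 in water livers alone (8.11). The part of neutrophil number in the S100a8 difference was not tested. The acute phase gene Saa3 read 14.04, 14.43, 13.74 and 15.26 on the PFOA arrays, against 13.65, 12.76, 12.04 and 12.56 on the water arrays and did not pass (1.62 ± 0.42, adjusted p = 0.111). In whole liver, fewer cells of a type and less RNA per cell cannot be told apart.

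Col1a1, the α1 chain of type I collagen, rose as well. It read 15.16, 13.78, 13.74 and 15.29 on the PFOA arrays, against 10.82, 11.69, 11.47 and 11.55 on the water arrays. No arrays overlapped, and PFOA replicates 1 and 4 were higher than replicates 2 and 3, the same division as in Cyp2b10. The difference was 3.10 ± 0.38, adjusted p = 1.52e-05, with 3.94 from the smaller set of arrays alone and 2.06 from the larger. With the silent-gene index as a covariate it was 2.76. Col1a2, the partner chain, differed by 0.16 ± 0.17, adjusted p = 0.869 and Col3a1, of type III collagen, by 0.19 ± 0.28, adjusted p = 0.905, both named here after their values were seen. Dcn, Ecm1 and Rgs5, also markers of stellate cells and fibroblasts, lay below the water arrays on all PFOA arrays without passing (-0.45 ± 0.13, adjusted p = 0.167 for Dcn). Of 9 markers of these cells tested, Col1a1 alone was called, against 0.319% of all named genes rising, and the list median was -0.34. The mean log2 signal of the 9, Col1a1 included, was 12.6 to 12.9 on the PFOA arrays and 12.5 to 12.9 on the water arrays. The part of stellate cell number in the Col1a1 difference was not tested.

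No member was called among 6 hepatocyte markers (median -0.22), 12 Kupffer cell markers (-0.25), 13 endothelial markers (-0.08), 5 cholangiocyte markers (-0.05), 8 lymphocyte markers (0.02), 4 red blood cell markers (-0.02), 6 pancreas acinar markers (-0.15), 2 adipocyte markers (0.53) or 3 skeletal muscle markers (0.33). Of all named genes 0.319% rose and 0.0518% fell. Clec4f, a Kupffer cell receptor, read 14.44 ± 0.35 in PFOA livers, against 14.76 ± 0.08 in water livers.

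Genes of fatty acid oxidation are the textbook PPARα targets. Among peroxisomal genes 1 of 33 tested rose, among genes of ω-oxidation, uptake, binding and storage 3 of 28, and among genes of mitochondrial β-oxidation and ketogenesis 1 of 17. None fell. Over all 11591 named genes 0.319% rose and 0.0518% fell. Their medians were 0.06, 0.18 and 0.13 in that order.

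Acaa1b, a peroxisomal thiolase, read 20.46, 20.70, 20.43 and 20.07 on the PFOA arrays, against 18.35, 19.32, 18.74 and 18.85 on the water arrays. All PFOA arrays were above all water arrays. The rise was 1.60 ± 0.27, adjusted p = 0.00137, which is 3.03-fold. Acadl, the mitochondrial long-chain acyl-CoA dehydrogenase, read 16.93, 17.07, 16.68 and 17.20 on the PFOA arrays, against 15.57, 16.04, 15.49 and 15.49 on the water arrays. Water replicate 2 was the water array nearest to the PFOA arrays. The rise was 1.32 ± 0.26, adjusted p = 0.00944, and its call ended without PFOA replicate 4.

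Cyp4a31, a fatty acid ω-hydroxylase, read 12.04, 12.40, 12.10 and 11.39 on the PFOA arrays, against 7.27, 7.92, 7.05 and 8.80 on the water arrays. The lowest PFOA array was 2.59 above the highest water array, water replicate 4. The rise was 4.22 ± 0.82, adjusted p = 0.00944, and its call ended without water replicate 3. Its water mean of 7.76 was also below the silent-gene level, and against that level the rise was at least 9.25-fold. The water means of Cyp2b13, Mcm6, Cnga3, D17H6S56E-5 and Chaf1b were below it too, so no fold is given for them. Creb3l3, a liver transcription factor active in fasting, rose by 1.05 ± 0.19, adjusted p = 0.00371. Cyp4f15, another ω-hydroxylase, rose by 0.80 ± 0.17, adjusted p = 0.0309 and kept its call in 1 of the 8 leave-one-out fits.

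Cyp4a14 read 13.69, 13.80, 12.62 and 14.89 on the PFOA arrays, against 7.23, 12.53, 6.63 and 14.15 on the water arrays. Water replicates 1 and 3 were far below the other 6 arrays, and the groups overlapped. Its difference was 3.62 ± 1.65, adjusted p = 0.559. Acot1, a cytosolic acyl-CoA thioesterase, read 16.44, 17.05, 16.90 and 16.55 on the PFOA arrays, against 14.38, 15.69, 15.26 and 15.36 on the water arrays. Its groups did not overlap, but the difference did not pass (1.56 ± 0.51, adjusted p = 0.302). Peroxisomal Ech1 (1.07 ± 0.31, adjusted p = 0.194) and Eci2 (0.96 ± 0.30, adjusted p = 0.25) and mitochondrial Eci1 (0.99 ± 0.31, adjusted p = 0.256), auxiliary enzymes of unsaturated fatty acid oxidation, were likewise higher on every PFOA array without passing. Angptl4, an inhibitor of lipoprotein lipase, overlapped (2.38 ± 0.66, adjusted p = 0.159).

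The fatty acid transporter Cd36 (0.09 ± 0.39, adjusted p = 0.973), the peroxisomal bifunctional enzyme Ehhadh (0.45 ± 0.52, adjusted p = 0.876), the pyruvate dehydrogenase kinase Pdk4 (-0.75 ± 0.91, adjusted p = 0.885) and the fasting hormone Fgf21 (-0.45 ± 0.77, adjusted p = 0.923) had overlapping arrays. Ppara itself differed by 0.21 ± 0.21, adjusted p = 0.867.

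Among 30 tested genes of the cell cycle and DNA replication, 1 rose and none fell, against 0.319% of all named genes rising and 0.0518% falling. The list median was 0.49. In 12 of the 30 the water mean lay below the median of all probes' mean log2 signals (8.89), and in 6 the PFOA mean did. The riser was Mcm6, a subunit of the replicative helicase. It read 10.70, 11.07, 10.50 and 11.70 on the PFOA arrays, against 8.46, 9.10, 8.07 and 8.18 on the water arrays. The groups did not overlap. The rise was 2.54 ± 0.52, adjusted p = 0.0165, and the call was kept in 3 of the 8 leave-one-out fits. Cdc20 (2.0 ± 0.50, adjusted p = 0.0848), Mcm5 (1.39 ± 0.35, adjusted p = 0.0957) and Aurkb (2.25 ± 0.58, adjusted p = 0.103), all 3 of dividing cells, lay above the water arrays on every PFOA array and did not pass. In 7 of the 30 genes the PFOA arrays were all above the water arrays, and in none were they all below, against 2.47% and 3.46% of all probes. Chaf1b, a subunit of a chromatin assembly factor outside the list, rose by 1.58 ± 0.35, adjusted p = 0.0362 and kept its call in 1 of the 8 leave-one-out fits.

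Among 31 interferon-inducible genes, Ifi27l2b rose and none fell, against 0.319% of all named genes rising and 0.0518% falling, with a list median of -0.40. Ifi27l2b read 13.59, 13.63, 14.34 and 13.24 on the PFOA arrays, against 10.90, 11.26, 10.71 and 11.03 on the water arrays, a rise of 2.73 ± 0.40, adjusted p = 0.000244. The PFOA arrays were at least 1.98 above the water arrays. Irf7, a transcription factor of the interferon response, read 10.67, 10.15, 10.57 and 10.22 on the PFOA arrays, against 11.37, 11.33, 11.46 and 11.45 on the water arrays and did not pass (-1.0 ± 0.33, adjusted p = 0.314). In 8 of the 31 the PFOA arrays were all below the water arrays, and in 2 they were all above, against 3.46% and 2.47% of all probes. Cxcl9 (0.86 ± 0.28, adjusted p = 0.286) and Ifit1 (-0.99 ± 0.32, adjusted p = 0.294) also missed the threshold, in opposite directions.

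Amino acid catabolism and the urea cycle gave 1 fall among 32 tested genes, against 0.0518% of all named genes falling, and the list median was -0.35. Mat1a, which makes S-adenosylmethionine in liver, read 20.05, 20.08, 19.13 and 20.29 on the PFOA arrays, against 20.84, 20.56, 20.70 and 20.67 on the water arrays. PFOA replicate 3 was well below the other PFOA arrays. The fall was 0.81 ± 0.19 (adjusted p = 0.0465), a call kept in 1 of the 8 leave-one-out fits and lost after cyclic loess normalization. In 12 of the 32 genes the PFOA arrays were all below the water arrays, and in none were they all above, against 3.46% and 2.47% of all probes. They included ornithine aminotransferase Oat (-1.38 ± 0.36, adjusted p = 0.106), glutamate dehydrogenase Glud1 (-0.65 ± 0.17, adjusted p = 0.135) and aminoadipate synthase Aass (-0.59 ± 0.21, adjusted p = 0.364). The mean log2 signal of the list was 17.6 to 17.8 on the PFOA arrays and 18.1 on all water arrays. This was not particular to the list. The mean of 16 lipoprotein genes was 17.06 to 17.13 on the PFOA arrays and 17.31 to 17.32 on the water arrays. That of 6 hepatocyte markers was 19.83 to 20.03 and 20.13 to 20.19. Other lists went the other way, among them the P450 list (17.1 to 17.9 on the PFOA arrays and 16.23 to 16.43 on the water arrays).

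Acute phase and plasma protein genes also gave 1 fall, among 22 tested, against 0.0518% of all named genes falling, with a list median of -0.26. Itih3, a heavy chain of a plasma protease inhibitor, read 18.34, 18.53, 18.55 and 18.30 on the PFOA arrays, against 19.80, 19.17, 19.26 and 19.27 on the water arrays. The groups did not overlap, and water replicate 1 was the highest array. The fall was 0.95 ± 0.20 (adjusted p = 0.0232), kept in 3 of the 8 leave-one-out fits. Ambp (-0.27 ± 0.11, adjusted p = 0.52) and Itih2 (-0.34 ± 0.14, adjusted p = 0.517) were below the water arrays on all PFOA arrays without passing. Cyp2b13 was the 1 member called among 16 female-biased genes (median 0.35), against 0.319% of all named genes rising. Ntrk2, a neurotrophin receptor of that list, read 8.68, 7.93, 7.80 and 7.09 on the PFOA arrays, against 10.64, 11.05, 10.16 and 12.08 on the water arrays and did not pass (-3.11 ± 0.77, adjusted p = 0.0822).

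No member passed among 4 AhR targets (median 0.15), 15 genes of cholesterol synthesis and uptake (0.22), 25 of fatty acid and triglyceride synthesis (0.19), 19 of bile acid synthesis and transport (-0.07), 16 of lipoprotein metabolism (-0.22) or 17 of glucose and glycogen metabolism (-0.25). The same was true of 33 complement and coagulation genes (-0.14), 25 proteasome subunits (0.08), 26 chaperones (0.00), 11 p53 and growth-arrest targets (-0.06), 16 male-biased genes (-0.12), 16 clock genes (-0.16) and 28 genes of oxidative phosphorylation (-0.13). Of all named genes 0.319% rose and 0.0518% fell. Cyp7a1, the rate-limiting enzyme of bile acid synthesis, read 12.15, 12.05, 9.83 and 11.51 on the PFOA arrays, against 14.44, 12.63, 12.67 and 10.34 on the water arrays, with overlap (-1.14 ± 0.82, adjusted p = 0.769). Baat, which conjugates bile acids, was lower on every PFOA array without passing (-0.75 ± 0.21, adjusted p = 0.164).

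**Figure D2:**
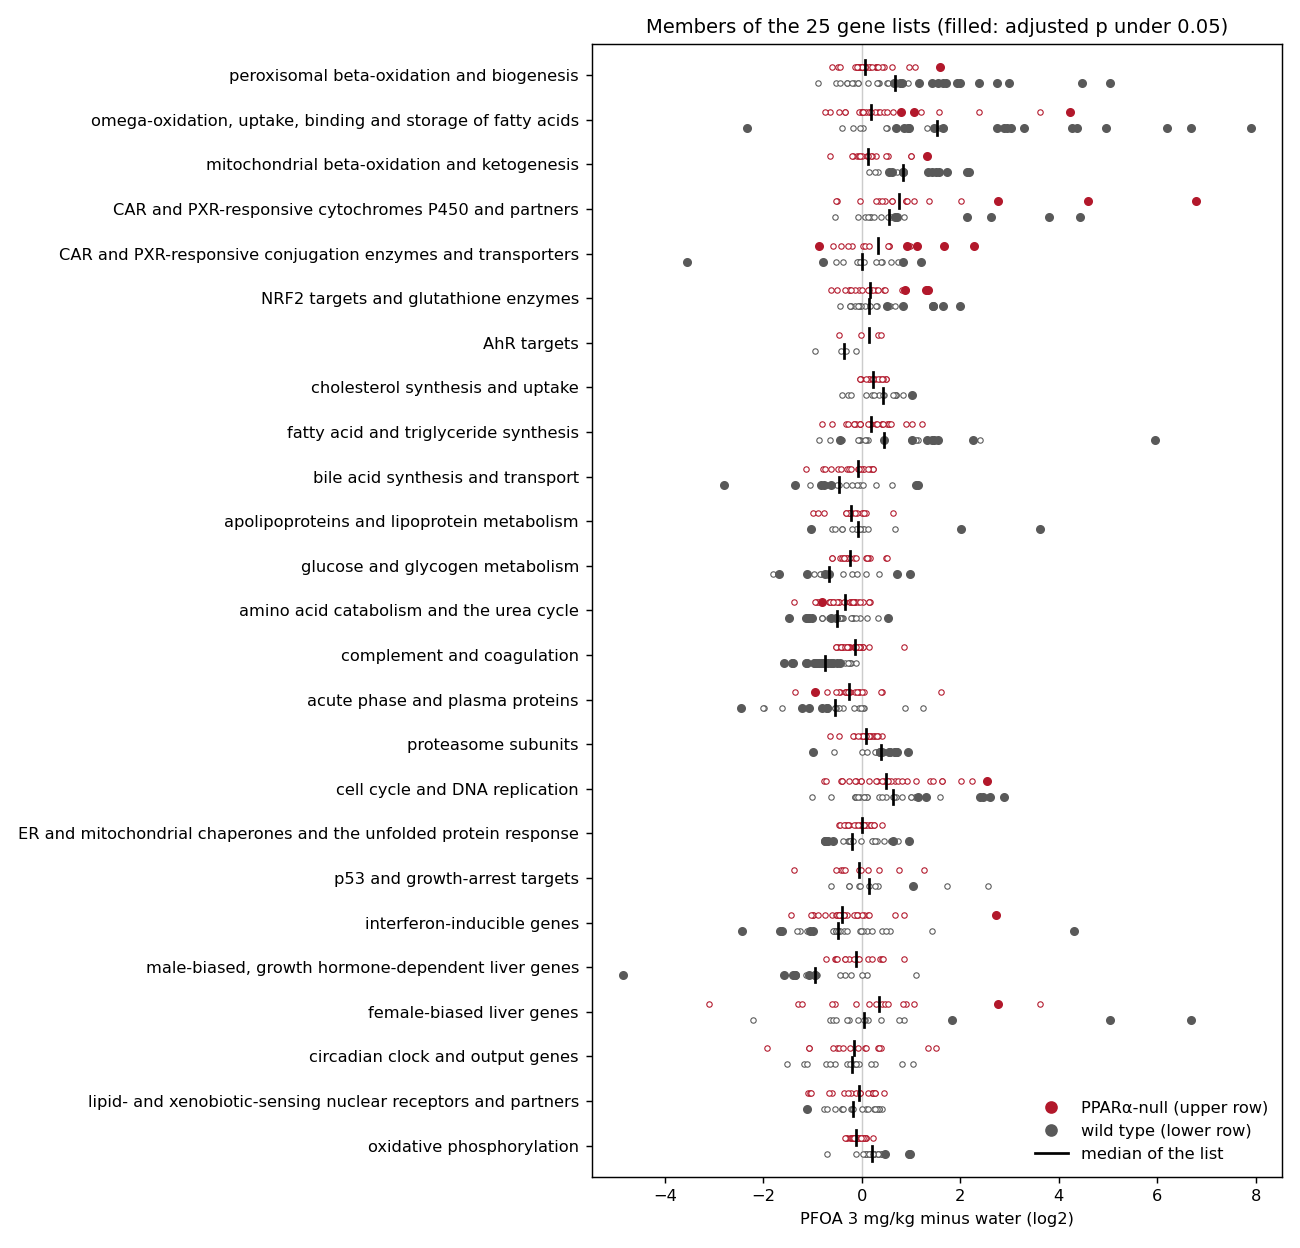
Difference between PFOA 3 mg/kg and water (log2) of each tested member of the 25 gene lists, in PPARα-null liver (red, upper row of each list) and in wild-type liver (grey, lower row). Filled points were called, and black bars are list medians. In PPARα-null liver the P450 list has the highest median, 0.76, and Cyp2c55 at 6.79 is the point farthest right.

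Among the other named rises, Cnmd, or chondromodulin, a cartilage glycoprotein, read 15.03, 15, 15.06 and 15.46 on the PFOA arrays, against 13.10, 12.62, 12.49 and 12.61 on the water arrays, a rise of 2.43 ± 0.32, adjusted p = 3.35e-05. Prss8, the serine protease prostasin, read 13.22, 13.26, 11.68 and 13.37 on the PFOA arrays, against 11.71, 10.68, 10.33 and 10.20 on the water arrays. PFOA replicate 3 was just below water replicate 1, and the other 3 PFOA arrays were above all water arrays. The rise was 2.15 ± 0.35, adjusted p = 0.00128. Stbd1, a glycogen-binding protein, rose by 1.70 ± 0.27, adjusted p = 0.000621, and the extracellular matrix protein gene Podn by 1.57 ± 0.29, adjusted p = 0.00688. The gene listed as D17H6S56E-5 rose by 3.55 ± 0.67, adjusted p = 0.00758, with PFOA arrays from 11.02 to 12.27 and water arrays from 5.87 to 9.52. Its call ended without water replicate 4.

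Smaller rises that stayed called without any 1 of the 8 arrays were those of Entpd5, a nucleotidase of the endoplasmic reticulum (1.02 ± 0.19, adjusted p = 0.00758), Thnsl2 (0.83 ± 0.14, adjusted p = 0.00154), the LIM protein gene Csrp3 (1.21 ± 0.23, adjusted p = 0.00942) and 4931406C07Rik (1.13 ± 0.21, adjusted p = 0.00758). Egln3, a prolyl hydroxylase of the hypoxia response, rose by 0.94 ± 0.18, adjusted p = 0.00837 and lost its call without PFOA replicate 4.

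Rises whose call ended without at least 3 of the arrays were those of Sar1b, a GTPase of vesicle budding (0.69 ± 0.14, adjusted p = 0.0152), Inmt, an N-methyltransferase (1.24 ± 0.28, adjusted p = 0.0368), Asic5, an ion channel (1.12 ± 0.26, adjusted p = 0.0451), Pth2, a neuropeptide (1.55 ± 0.34, adjusted p = 0.0284), Ankk1, a kinase (1.66 ± 0.35, adjusted p = 0.022), Cnga3, a channel subunit of cone photoreceptors (1.96 ± 0.44, adjusted p = 0.0382) and Gnat2, the cone transducin (1.62 ± 0.32, adjusted p = 0.00982). A second and dimmer Gnat2 probe differed by 0.49 ± 0.60 and was not called. Rplp0, a ribosomal protein gene, was called only on the dimmer of its probes (0.69 ± 0.16), while its brighter probe differed by 0.15 ± 0.13.

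Further falls were those of Syt3, a synaptotagmin (1.48 ± 0.30 lower, adjusted p = 0.0161), Nfia, a transcription factor (0.62 ± 0.13 lower, adjusted p = 0.0203) and Svil, supervillin (1.23 ± 0.26 lower, adjusted p = 0.022). Nfia read 13.79, 13.69, 13.78 and 13.76 on the PFOA arrays, against 14.37, 14.40, 14.43 and 14.29 on the water arrays, the narrowest spread of these 3. A second Svil probe differed by 0.04 ± 0.49 and was not called. Syt3 and Svil kept their calls in 4 of the 8 leave-one-out fits and Nfia in 3.

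Single arrays carried several of these calls. Leaving out PFOA replicate 1 ended the calls of Cnga3, Itih3, Sult2a8, Mat1a, Cyp4f15, Ces1e, Gstm4, Chaf1b, Pth2, Inmt and Asic5. Without PFOA replicate 2, the calls of Mcm6, Sult2a8, Mat1a, Nfia, Cyp4f15, Ces1e, Chaf1b, Pth2, Inmt, Asic5 and Svil were lost. Without PFOA replicate 3, the calls of Cnga3, Ankk1, Gnat2, Syt3, Mat1a, Cyp4f15, Asic5, Sar1b and Svil were lost. Without PFOA replicate 4, the calls of Cyp2b13, Mcm6, Cnga3, Syt3, Itih3, Sult2a8, Nfia, Cyp4f15, Acadl, Ces1e, Chaf1b, Pth2, Inmt, Asic5 and Egln3 were lost. Leaving out water replicate 1 ended the calls of Cyp2b13, Mcm6, Cnga3, Ankk1, Gnat2, Syt3, Itih3, Sult2a8, Mat1a, Nfia, Cyp4f15, Ces1e, Chaf1b, Inmt, Asic5, Sar1b and Svil. Without water replicate 2, the calls of Cnga3, Mat1a, Nfia, Ces1e, Chaf1b, Pth2, Inmt, Asic5 and Sar1b were lost. Without water replicate 3, the calls of Cyp4a31, Mcm6, Cnga3, Ankk1, Gnat2, Syt3, Itih3, Sult2a8, Mat1a, Nfia, Cyp4f15, Ces1e, Chaf1b, Inmt and Asic5 were lost. Without water replicate 4, the calls of Mcm6, Ankk1, Itih3, Sult2a8, Mat1a, Cyp4f15, D17H6S56E-5, Chaf1b, Pth2, Inmt and Svil were lost. Adding the silent-gene index as a covariate ended the calls of Cnga3, Cyp4f15, Pth2, Inmt and Asic5.

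The response in wild-type livers was set beside this. There, 1473 of 25295 probes were called (5.82%), 852 higher and 621 lower. Of the 76 probes called in null livers, 34 were also called in wild-type livers, all 34 in the same direction. They made up 44.7% of the null calls and 2.31% of the wild-type calls. The groups of the 2 genotypes share no arrays.

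The difference between the null and the wild-type response was tested directly. It was called for 105 probes (0.415%), 21 with a higher value in null and 84 with a lower one. Of the 76 probes called in null livers, 10 were among the 105, all 10 with a larger rise in null livers. Of the 84, 83 were called as rises in wild-type livers. The genotype test uses the same arrays as the calls within each genotype, so neither of these counts is separate support. The count of 105 rested on single arrays: it was 42 to 69 without any 1 of 12 of the 16 arrays, and 80 to 145 without PFOA replicate 2 or 3 of the null group or replicate 1 of either wild-type group.

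S100a8 read 8.59 ± 0.74 in wild-type PFOA livers, against 8.63 ± 0.57 in wild-type water livers, a wild-type difference of -0.04 ± 0.70 (adjusted p = 0.985). The null response exceeded it by 7.48 ± 0.99 (adjusted p = 9.61e-05). For Ces2a, wild-type arrays read 17.94 ± 0.15 in wild-type PFOA livers, against 18.01 ± 0.11 in wild-type water livers, and the responses differed by 1.74 ± 0.27 (adjusted p = 0.000816). Cnmd read 14.31 ± 0.38 in wild-type PFOA livers, against 14.25 ± 0.08 in wild-type water livers, all above the null water arrays, and its responses differed by 2.38 ± 0.45 (adjusted p = 0.00959). For Col1a1 the difference of responses was 2.36 ± 0.54 (adjusted p = 0.0393), a call that ended without null PFOA replicate 1 or 4 or any 1 of the null water arrays, and without wild-type PFOA replicate 2, 3 or 4 or wild-type water replicate 2, 3 or 4. Null livers had the higher difference for Cyp2c55 and Cyp2b10 too, but neither passed the adjusted threshold. Wild-type livers gave 4.44 ± 0.45 and 2.13 ± 0.58, and the differences between genotypes were 2.35 ± 0.63 (adjusted p = 0.102) and 2.46 ± 0.82 (adjusted p = 0.224).

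Lower responses in null livers were found for genes that PPARα is known to drive. Ehhadh read 20.61, 20.31, 20.51 and 20.77 in wild-type PFOA livers, against 15.74, 15.92, 16.38 and 16.30 in wild-type water livers. No wild-type PFOA array overlapped the wild-type water arrays, while null arrays lay between 15.79 and 17.07 in PFOA livers and between 15.90 and 16.59 in water livers. The null response was the lower one, by a difference of -4.01 ± 0.73 (adjusted p = 0.00691). The same test gave -4.63 ± 0.72 for Acot1 (adjusted p = 0.000869) and -4.27 ± 0.55 for Cd36 (adjusted p = 9e-05). Acot1 read 15.17 ± 0.56 in null water livers, against 12.88 ± 0.83 in wild-type water livers, so its levels also differed without PFOA. On PFOA it read 16.73 ± 0.29 in null and 19.08 ± 0.16 in wild-type livers. Cd36 on water read 12.87 in null and 12.49 in wild-type livers. The genotype difference on water was not tested. Mogat1, an acyltransferase of triglyceride synthesis, read 7.92 ± 1.51 in PFOA livers, against 7.96 ± 0.67 in water livers, with 14.60 ± 0.27 in wild-type PFOA livers, against 8.64 ± 1.09 in wild-type water livers, and the responses differed by -6.0 ± 1.10 (adjusted p = 0.00724).

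Pdk4 (-5.72 ± 1.28, adjusted p = 0.0353), the acyl-CoA thioesterase Acot3 (-5.64 ± 1.10, adjusted p = 0.0121), the transcriptional repressor Hes7 (-5.60 ± 0.93, adjusted p = 0.00204) and the keratin Krt23 (-4.95 ± 1.02, adjusted p = 0.0196) completed, with Mogat1, the 5 most negative among probes with a gene symbol. A probe without one differed by -9.81. Pdk4 and Acot3 were higher in null water livers (13.87 and 12.18) than in wild-type water livers (11.50 and 10.28). Hes7 (10.38, against 10.34) and Krt23 (10.16, against 10.21) had similar means there. Leaving out single arrays ended the call of Pdk4 for 11 of the 16, all but null PFOA replicates 2 and 3, null water replicate 4, wild-type PFOA replicate 1 and wild-type water replicate 3. It ended that of Krt23 for null water replicate 4 and wild-type water replicate 3. Cyp4a31 rose in both genotypes, and the difference of -3.69 ± 1.16 between the responses did not pass (adjusted p = 0.19). Acaa1b and Acadl gave 1.43 ± 0.27 and 1.51 ± 0.26 in wild-type livers, and their genotype differences were 0.16 ± 0.38 (adjusted p = 0.908) and -0.19 ± 0.36 (adjusted p = 0.886).

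A positive difference was called for 12 named genes, and 8 of these were called as falls in wild-type livers: Hsd3b5, Ifitm3, Cyp4f14, Arap3, Gpld1, Ifitm1, Ces2g and Tpst1. Hsd3b5, a male-biased steroid dehydrogenase, read 16.64 ± 0.94 in PFOA livers, against 17.17 ± 0.38 in water livers, with 12.09 ± 1.60 in wild-type PFOA livers, against 16.94 ± 0.30 in wild-type water livers, and the responses differed by 4.32 ± 0.98 (adjusted p = 0.0362). That call ended without any 1 of 13 of the 16 arrays, all but wild-type PFOA replicates 1 and 2 and wild-type water replicate 1. Ifitm3, an interferon-inducible membrane protein, read 18.69 ± 0.08 in PFOA livers, against 19.11 ± 0.24 in water livers, with 16.36 ± 0.19 in wild-type PFOA livers, against 18.79 ± 0.09 in wild-type water livers, and the responses differed by 2.0 ± 0.30 (adjusted p = 0.00058).

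**Figure D3:**
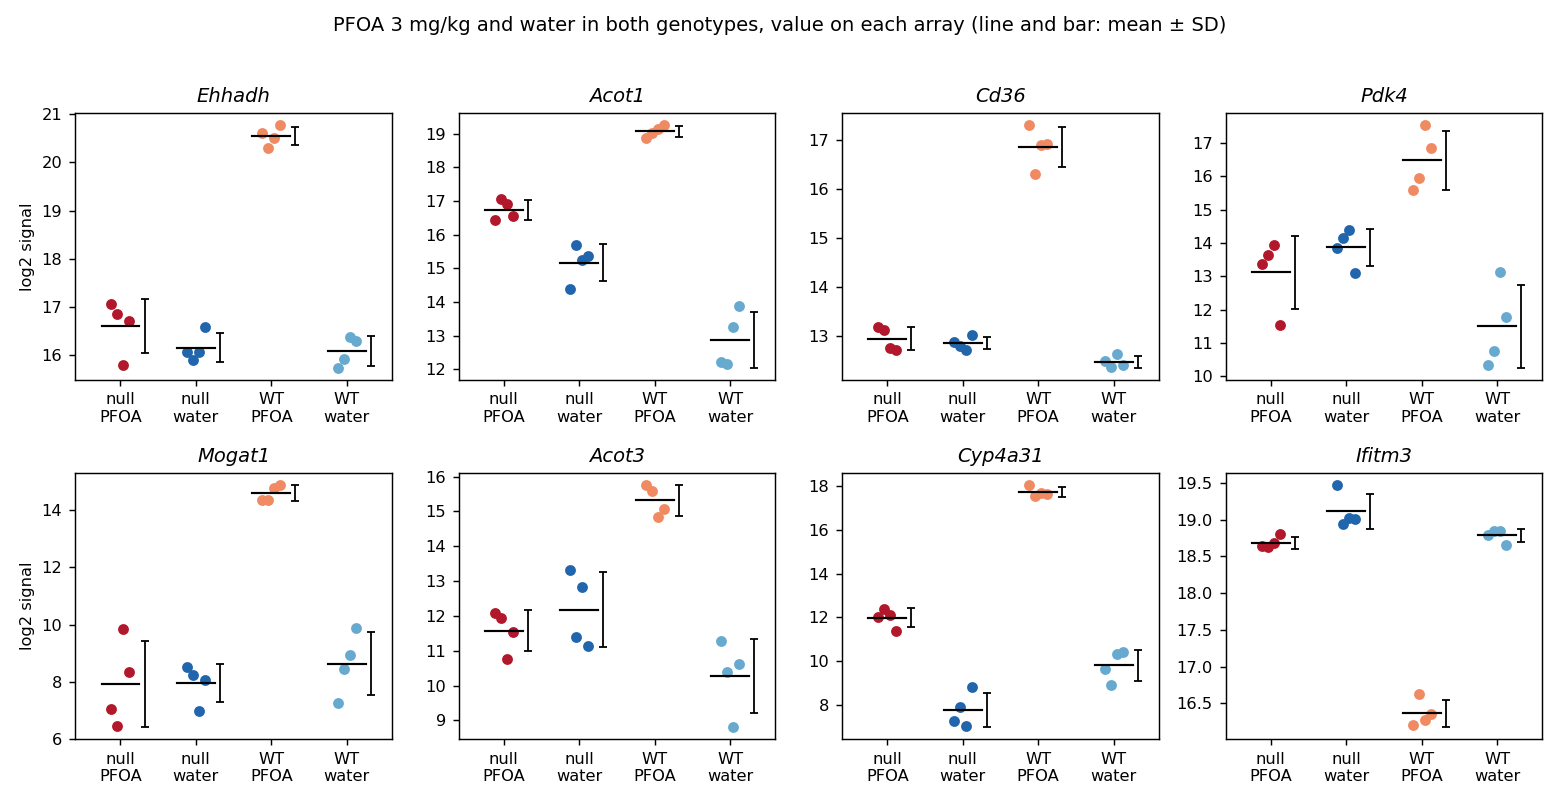
Log2 signal of 8 genes on each array of 4 groups: PPARα-null PFOA 3 mg/kg (red), PPARα-null water (blue), wild-type PFOA 3 mg/kg (orange) and wild-type water (light blue). Lines are means and bars are SD, n = 4, and axes differ between panels and do not start at 0. Cd36 read 12.96 ± 0.24 in null PFOA livers, 12.87 ± 0.13 in null water livers, 16.85 ± 0.40 in wild-type PFOA livers and 12.49 ± 0.12 in wild-type water livers.

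By list, the genotype difference was called for 5 of 33 peroxisomal genes, 7 of 28 genes of ω-oxidation and uptake and 2 of 17 mitochondrial genes, with medians of -0.61, -1.06 and -0.74. Over all probes the share called was 0.415%. The genotype difference was called for none of the 18 genes of the P450 list and none of the 25 glutathione genes. It was called for Ces2a among the 16 conjugation and transport genes. The medians of these lists were 0.37, -0.02 and 0.34. Complement and coagulation genes were called as falls for 23 of 33 in wild-type livers (median -0.74) and for none of 33 in null livers, while the genotype difference was called for none of the 33 (median 0.64). Over all 25295 probes, 621 were called as falls in wild-type livers and 10 (0.0395%) in null livers. Calls in either direction made up 5.82% of the probes in wild-type livers.

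**Figure D4:**
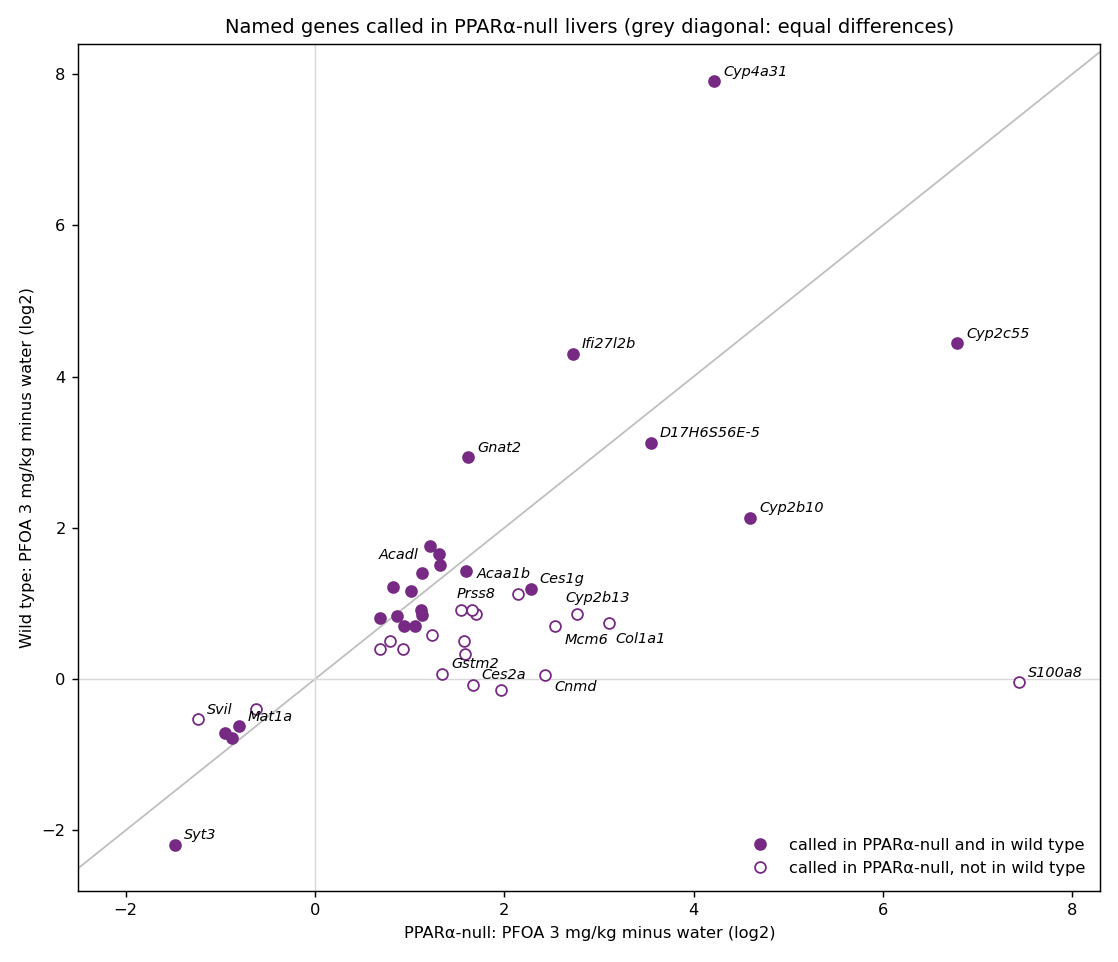
Difference between PFOA 3 mg/kg and water (log2) in PPARα-null liver (x axis) and in wild-type liver (y axis) for the 44 named genes called in PPARα-null liver. Filled points were also called in wild-type liver, and the diagonal marks equal differences. S100a8 sits at 7.44 on the x axis and -0.04 on the y axis, and Cyp4a31 at 4.22 and 7.91.

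At 1 mg/kg, 3 probes were called in PPARα-null livers against the same water arrays: Cyp2c55 (4.83 ± 0.45), Ces1g (1.52 ± 0.22) and Cnmd (1.88 ± 0.32). Since both doses share their controls, the doses were also compared with each other. Between 3 and 1 mg/kg 2 probes were called (0.00791%), S100a8 and Col1a1, both higher at 3 mg/kg, and at an unadjusted p under 0.05 the count was 1155. Neither passed when only the compared groups were fitted.

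S100a8 read 9.91, 7.70, 9.96 and 8.82 at 1 mg/kg, overlapping the water arrays, and was 6.45 ± 0.70 higher at 3 mg/kg (adjusted p = 4.96e-06). Col1a1 read 11.77, 12.42, 12.84 and 12 at 1 mg/kg and was 2.23 ± 0.38 higher at 3 mg/kg (adjusted p = 0.0251), a call that ended without PFOA 3 mg/kg replicate 1 or 4 and without PFOA 1 mg/kg replicate 1, 2 or 4. Cyp2c55 read 15.98, 15.97, 15.65 and 15.38 at 1 mg/kg, between the other groups with no overlap, and the dose difference of 1.96 ± 0.45 did not pass (adjusted p = 0.33). The same order, with no overlap of neighbouring doses, was seen in Cyp2b10 (14.53, 14.83, 15.01 and 14.54 at 1 mg/kg) and Ces2a (18.32, 18.60, 18.40 and 18.36 at 1 mg/kg). Their differences between doses were 1.90 ± 0.58 (adjusted p = 0.69) and 0.88 ± 0.19 (adjusted p = 0.229). The 66 probes risen at 3 mg/kg had differences from water of 0.21 to 4.83 at 1 mg/kg, with a median of 0.69. They were picked as high against these same water arrays, which favours positive differences at 1 mg/kg. Their shared sign is therefore not separate support for a response at that dose.

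**Figure D5:**
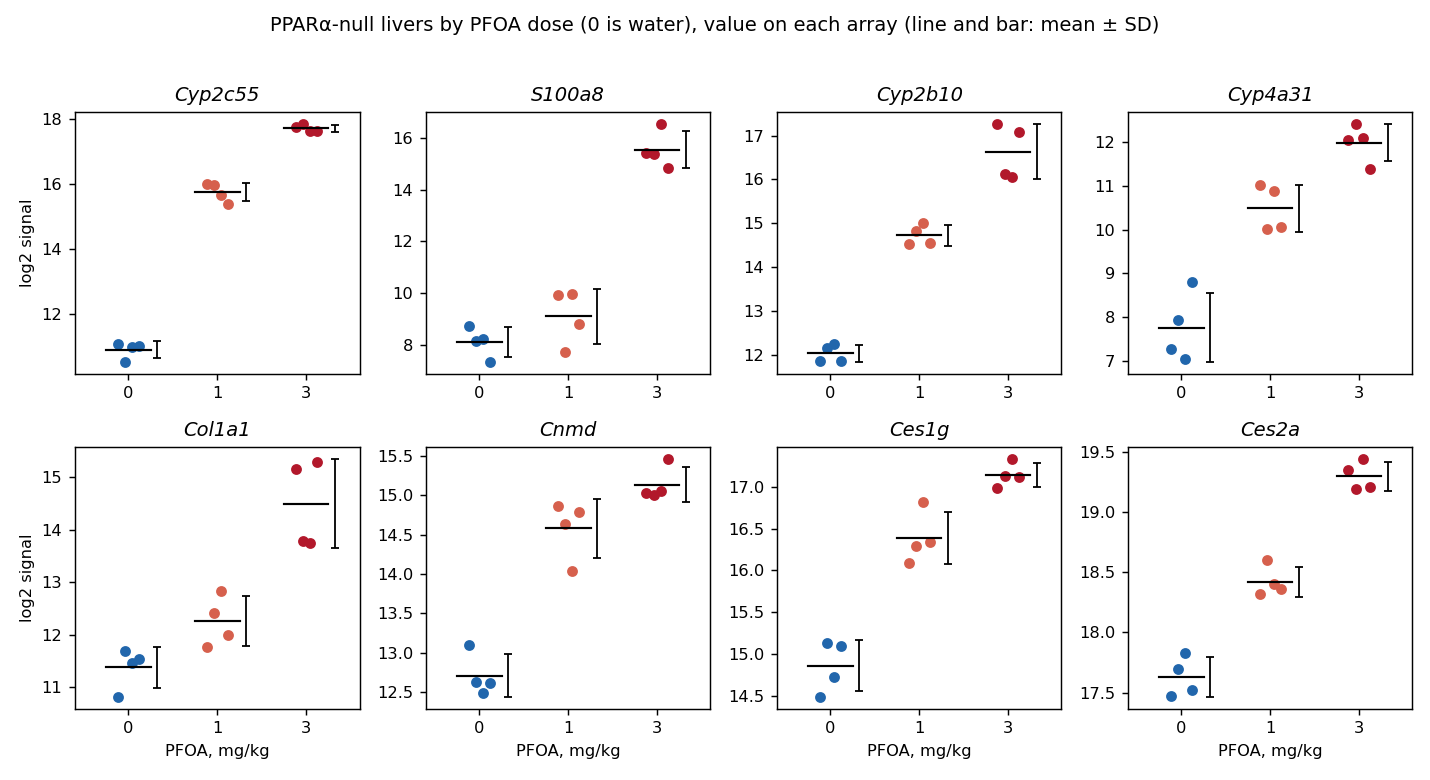
Log2 signal of 8 genes on PPARα-null arrays at 0 (water), 1 and 3 mg/kg PFOA. Points are arrays, lines are means and bars are SD, and axes differ between panels and do not start at 0. Cyp2c55 steps up at both doses, while S100a8 at 1 mg/kg, 9.10 ± 1.07, overlaps water at 8.11 ± 0.57.

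Wy at 50 mg/kg called no probe in PPARα-null livers against methylcellulose by limma, with 691 probes at an unadjusted p under 0.05. The 66 probes risen with PFOA had Wy differences of -0.51 to 1.57, with a median of 0.08. The PFOA response minus the Wy response was called for 12 probes (0.0474%), all higher with PFOA, and 8 of them were named: Cyp2c55, S100a8, Cyp2b10, Col1a1, Prss8, Cnmd, Ces1g and Ces2a. Compound, dose and vehicle all differ between these responses and cannot be told apart. Cyp2c55 differed by 6.22 ± 0.63 (adjusted p = 1.02e-06), with a Wy difference of 0.56. Cyp2b10 differed by 4.73 ± 0.82 (adjusted p = 0.00822), with a Wy difference of -0.13. S100a8 differed by 5.87 ± 0.99 (adjusted p = 0.00745), with a Wy difference of 1.57. Ces2a differed by 1.93 ± 0.27 (adjusted p = 0.000448). With only the compared groups fitted the count was 5, and S100a8, Col1a1, Cnmd and Prss8 were no longer called.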

How the data were processed

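RNA from whole liver (RIN 8.5 or higher per the labels' protocols) was labelled with digoxigenin-UTP and hybridised to 1-colour Applied Biosystems arrays, 1 per animal. The authors deposited a table of normalized log2 values per probe, made with steps not given in the sources used here. The base is not stated either and was taken as 2, since values ran from 4.85 to 21.55. Array medians of 9.1356 to 9.1365 show that the deposited values had been made alike between arrays, so a change in total RNA cannot be seen. No read depth applies, so precision is set by how many arrays a group has. Of 33012 probes, 14411 had 1 gene symbol in the platform annotation, 247 several and 18354 none, and 14402 matched RefSeq. The 7717 probes with any missing value were left out (1.15% of values missing).

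A linear model over the 39 arrays, with a mean for each group, was fitted by limma 3.58.1 under R 4.3.3 (29 residual and 2.51 prior degrees of freedom), two-sided, with Benjamini-Hochberg adjustment over all probes. The code was tested on simulated data. Where a gene had several probes, the one brightest over all arrays stands for it. The genes named were the 15 largest rises and falls among called, non-overlapping probes with 1 symbol and the higher mean above the median of all probes, up to 5 in each direction from each other comparison, up to 5 members per list by adjusted p with all called members, and a fixed set of PPARα, CAR and PXR genes. The remaining called genes were added so that every named call is listed, with a few neighbours named in the text as picked later. The members and lists were chosen with earlier results of these data known. The array sets and the silent-gene index were derived from the data. Alternatives were another fit of the compared groups alone, missing values kept, bright probes only, cyclic loess, blocks, covariates, array weights, a trended prior and single arrays left out, with the compared groups on the same probes added later.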

Additional observations from a re-analysis of the deposited data

Results flagged for a closer look

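In groups of 4, an array is listed here when its distance to the nearest other array exceeds the critical share of the group's range in Dixon's test. Chance alone lists about 1 in 20 groups. The number of groups searched is not given here, so no excess over chance can be read from the list. In PPARα-null PFOA 3 mg/kg livers, replicate 3 stood apart in Ankk1 (highest, 12.51), Sult2a8 (highest, 17.80), Rplp0 (highest, 17.61, brighter probe), Prss8 (lowest, 11.68) and Inmt (lowest, 17.71), and replicate 4 in Cnmd (highest, 15.46). In PPARα-null water livers, replicate 1 stood apart in Itih3 (highest, 19.80) and Ifitm3 (highest, 19.47), replicate 2 in Cyp2c55 (lowest, 10.54) and Acadl (highest, 16.04), and replicate 4 in Gstm4 (lowest, 14.26). Array weights estimated from the data were 0.465 for PFOA replicate 3 and 0.731 to 1.645 for the other PFOA arrays, and 0.921 to 1.647 for the water arrays.

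The response of null livers less that of wild-type livers, tested as a difference of differences in limma, was called for 12 named genes as positive and for 60 as negative. The positive ones were S100a8 (7.48), Hsd3b5 (4.32), Cnmd (2.38), Col1a1 (2.36), Ifitm3 (2.0), Cyp4f14 (1.99), Ces2a (1.74), Arap3 (1.51), Gpld1 (1.24), Ifitm1 (1.18), Ces2g (1.13) and Tpst1 (0.99). Among the 60 negative ones were Mogat1 (-6.0), Pdk4 (-5.72), Acot3 (-5.64), Hes7 (-5.60), Krt23 (-4.95), Acot1 (-4.63), Cd36 (-4.27) and Ehhadh (-4.01).

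When probes with missing values were kept, 5851 more were tested and 1 of them was called. This probe, which carries no gene symbol, averaged 8.68 in PPARα-null PFOA livers and 6.81 in water livers, where 1 array had no value, a difference of 1.87 ± 0.39 (limma, adjusted p = 0.0256).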

How the results depend on the processing

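The 76 probes changed by PFOA in null livers became 10 with only the compared groups fitted (30841 probes). On the same 25295 probes those groups gave 15. The count was 22 within the smaller array set, 20 of these among the 76, and 199 with array weights. Without any 1 array it was 43 to 72 (43 without water replicate 1, 45 without water replicate 3). The larger array set held a single null water array. No count within it is therefore given for comparisons that use null water arrays. The 105 of the genotype difference became 17 in the smaller set alone, 12 of these among the 105, and 59 with the silent-gene index. They became 331 with array weights and 178 without a wild-type array on 1 mg/kg that went against its label. Without any 1 array the count was 42 to 145. The 2 of the dose comparison became 0 with only the compared groups on either probe set, 1 and 0 within the sets, 4 with array weights and 1 to 5 without any 1 array. The 12 of the PFOA minus Wy response became 5 with only the compared groups on either probe set. They became 20 with the silent-gene index and 21 with array weights. Without any 1 array the count was 7 to 14 (7 without methylcellulose replicate 3). The smaller array set held a single null methylcellulose array, so no count within either set is given for this response. The fits on the same probes were added after seeing the data. The causes were not tested, and fewer arrays enter several of these fits. No called gene value reversed under any alternative run.

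Same-numbered null arrays deviated together with correlations of 0.073, 0.118, -0.063 and 0.102, and 2 of 4 PFOA arrays correlated best with their own number, so the numbers were not taken as pairs. With the replicate block the counts were 93, 135, 2 and 14 in the order above, with 75 of the 76 calls kept. Of the 76, 32 stayed called without any 1 of the 8 arrays, 72 when the array set was a block, and 65 when the silent-gene index was a covariate. Probes near background limit what can be seen in dim genes, and the 7717 untested probes had a median signal of 7.56, against 9.95 for those tested.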
